A study of Mus musculus with 6 samples.

Results

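The genes described here are cytokine receptors, a small number of cytokine ligands, and the JAK-STAT genes that carry the receptors' signal, 39 genes chosen by symbol from the 47561 gene entries of each count table. Of these, 36 had enough counts to be tested, out of 16022 tested genes in all, and Il7r, Lifr and Osmr were not tested. They were measured in 6 RNA-seq libraries of mouse LT-HSCs (long-term hematopoietic stem cells, a rare marrow population with the longest capacity to rebuild blood). The comparison asks which cytokine inputs these cells transcribe and whether that differs when Piezo1, the gene of a mechanically opened calcium-permeable channel, is knocked out. The Control group held 3 libraries with the genotype label WT and the Piezo1 KO group held 3 libraries titled as Piezo1 KO. All were sorted from bone marrow and no agent was given in the labels. The genotype label names a Piezo1 knockout in KO 1 only, and names Piezo2 and Piezo3 in KO 2 and KO 3, so the groups were taken from the titles. The labels do not give the sort gates, the deleted part of the gene, the cell type in which it was deleted, or the age and strain of the mice. They also do not say that each library came from a separate mouse. P-values therefore measure only the spread between these libraries, which may be technical.

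Most of these receptors have no enzyme of their own. When a cytokine brings receptor chains together, Janus kinases (JAKs) bound to the chains are activated and phosphorylate STAT proteins, which then enter the nucleus and activate genes. Among those genes are the SOCS family, including Cish, whose products bind receptors or kinases and damp the signal. In hematopoietic stem cells this pathway is known for linking cytokine signals to self-renewal and to the output of blood cells. Not every receptor named here works in this way. Tek (Tie2), the receptor for angiopoietins, Csf1r and Kit, for example, are tyrosine kinases themselves and belong to another receptor class.

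STAT proteins bind DNA at a short palindrome, TTCNNNGAA, which reads the same on both strands. The promoters of 2 genes that are known STAT targets, Cish and Socs3, are shown first because they hold this motif, and those of Jak2 and Il2rg because these genes had the smallest p-values of the set. Sequences are from RefSeq on build GRCm38.p6 and are written 5′ to 3′ on the gene's strand, with each match to the motif in capitals. The Cish sequence (chr9:107296409-107296678, plus strand) runs from 250 bases before the transcript start to 20 after it. The sequences of Socs3 (chr11:117969367-117969616, minus strand), Jak2 (chr19:29251553-29251802, plus strand) and Il2rg (chrX:101268256-101268505, minus strand) end just before the start.
Cish: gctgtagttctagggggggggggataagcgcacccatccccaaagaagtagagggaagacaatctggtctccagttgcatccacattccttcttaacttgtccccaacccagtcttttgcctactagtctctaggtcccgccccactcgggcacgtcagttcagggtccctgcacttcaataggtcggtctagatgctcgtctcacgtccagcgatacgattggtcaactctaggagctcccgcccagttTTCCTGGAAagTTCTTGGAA
Socs3: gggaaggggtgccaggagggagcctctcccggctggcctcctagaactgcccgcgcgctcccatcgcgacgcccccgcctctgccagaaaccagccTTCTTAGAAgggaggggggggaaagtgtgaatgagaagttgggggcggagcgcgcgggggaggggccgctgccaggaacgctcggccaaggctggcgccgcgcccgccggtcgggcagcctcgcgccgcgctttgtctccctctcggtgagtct
Jak2: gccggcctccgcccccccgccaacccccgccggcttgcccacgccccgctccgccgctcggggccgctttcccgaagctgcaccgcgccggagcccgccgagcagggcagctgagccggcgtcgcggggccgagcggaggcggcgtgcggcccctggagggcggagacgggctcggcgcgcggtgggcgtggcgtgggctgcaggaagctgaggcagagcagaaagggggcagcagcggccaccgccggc
Il2rg: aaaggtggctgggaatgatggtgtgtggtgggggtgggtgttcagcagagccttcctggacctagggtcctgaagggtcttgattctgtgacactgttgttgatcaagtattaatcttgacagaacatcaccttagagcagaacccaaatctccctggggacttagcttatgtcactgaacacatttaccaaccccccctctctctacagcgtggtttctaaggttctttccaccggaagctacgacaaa
Cish held 2 matches, both at the transcript start, Socs3 held 1, and the windows of Jak2 and Il2rg held 0. Over windows of 300 bases (250 before and 50 after the start), 5 of the 31 members with an entry held at least 1 match, or 16.1%. They were Cish and Il18r1 with 2 matches each, and Csf2rb2, Il7r and Socs3 with 1. Of all tested genes with an entry 8.27% held a match (921 of 11132), and of all genes in the promoter file 9.55%. A match is a run of letters, not a measured binding site, and these libraries hold no measurement of binding.

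Total counts lay between 59435258 and 64653956 per library, and 16264 to 18540 genes were counted in a library. A count of 0 at these depths allows up to 0.0440 to 0.0539 CPM, the count of a gene relative to its library's total after TMM scaling, from 3 counts per library, which covers counting error only. Piezo1 was counted in Control 1 to 3 at 17.0, 7.02 and 24.3 CPM and in KO 1 to 3 at 4.28, 7.99 and 9.46 CPM. The library labelled Control 2 lay below 2 of the 3 KO libraries, so the groups overlapped, and the log2 difference was -1.15 (SE 0.56; edgeR adjusted p = 0.508), or -2.11 once corrected for the length and GC content of transcripts. As the deleted part is not stated, reads outside it would remain in a knockout, and this level neither passes nor fails the labels. All 10 genes of the stem cell list were counted in all 6 libraries, and their sum lay at 998 to 1388 CPM in Control and 893 to 1140 CPM in KO. The list includes Cd34 (mean 134 CPM in Control and 93.2 CPM in KO) and Flt3 (9.40 and 7.54 CPM), which progenitors also express. The sum is therefore not specific to LT-HSCs. Within this sum the markers went opposite ways: Ly6a averaged 327 CPM in Control and 123 CPM in KO and Procr 48.7 and 13.8 CPM, while Kit averaged 185 and 320 CPM. Some marker lists of other cells moved with the groups or with 1 library, while the sums for B cells, dendritic cells and stroma overlapped between the groups. The granulocyte list (10 genes, 5 counted in all 6 libraries) summed to 12233 CPM in the library labelled Control 3 and to 120 to 1176 CPM in the other 5. The erythroid list (8 genes, 7 counted in all 6) summed to 3320 to 6681 CPM in Control and 8330 to 26952 CPM in KO, and the megakaryocyte list (6 genes, all counted in all 6) to 772 to 1041 CPM and 1671 to 2486 CPM. The erythroid sum was higher through its 4 globin genes, while Car2 averaged 2614 CPM in Control and 1633 CPM in KO and Klf1 133 and 84.1 CPM. The monocyte list (8 genes, 5 counted in all 6) summed to 501 to 1436 CPM and 312 to 553 CPM. For B cells (6 genes, 1 counted in all 6) the sums were 31.1 to 86.5 CPM and 33.7 to 36.9 CPM. For T and NK cells (6 genes, 1 counted in all 6) they were 129 to 209 CPM and 246 to 263 CPM, nearly all from Nkg7. Cd3e and Trac stayed at or under 0.432 CPM, but Cd3d and Cd3g reached 8.11 and 4.50 CPM in KO 2. In the other libraries Cd3d was at most 0.593 CPM (Control 3) and Cd3g at 0. The stroma list (6 genes, 2 counted in all 6) summed to 12.7 to 26.8 CPM and 19.4 to 44.7 CPM, with Lepr and Cdh5 at 0 in all 6 libraries. The dendritic cell list (5 genes, 2 counted in all 6) summed to 47.5 to 80.7 CPM and 17.4 to 60.6 CPM, with Siglech and Itgax at 0 in all 6. The part of these other cells in the results below was not tested, and in bulk RNA fewer cells of a type and less RNA per cell cannot be told apart.

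All 4 JAK and all 5 STAT genes of the set were counted in every Control library, while few receptors reached a high level. Per kilobase of transcript, Angpt1 (84.8 ± 12.4 CPM per kb; SD, n = 3) and Il2rg (84.5 ± 32.5) stood at the head of the members. Ptpn6 (42.6 ± 15.7) and Jak1 (38.5 ± 5.98) followed, then Il15 (22.3 ± 9.93), Stat4 (21.2 ± 8.22), Il18 (17.7 ± 4.37), Il11ra1 (16.6 ± 8.12), Socs2 (16.3 ± 5.33) and Stat5a (16.3 ± 5.90). Each gene's range over the 3 Control libraries overlapped that of the next gene in this order, down the whole list, so no neighbours were separated beyond their spread. Among 14596 tested genes with a length, Angpt1 and Il2rg lay at percentile 91.4 of the Control level per kilobase, and Jak2 at percentile 59.3. At the low end, Il6ra, Socs3, Il10ra and Lifr were under 0.17 CPM per kb in Control, and Osmr and Il7r were not counted there. In CPM not scaled to length, 3 members averaged at least 100 in Control, 20 lay between 10 and 100, 9 between 1 and 10, and 7 under 1. In the KO libraries the order began with Angpt1 (100.8 CPM per kb), Jak1 (41.8), Ptpn6 (40.5) and Il2rg (38.8), and Jak2 stood 7th at 18.1 CPM per kb, against 14th at 8.29 in Control.

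**Figure D1:**
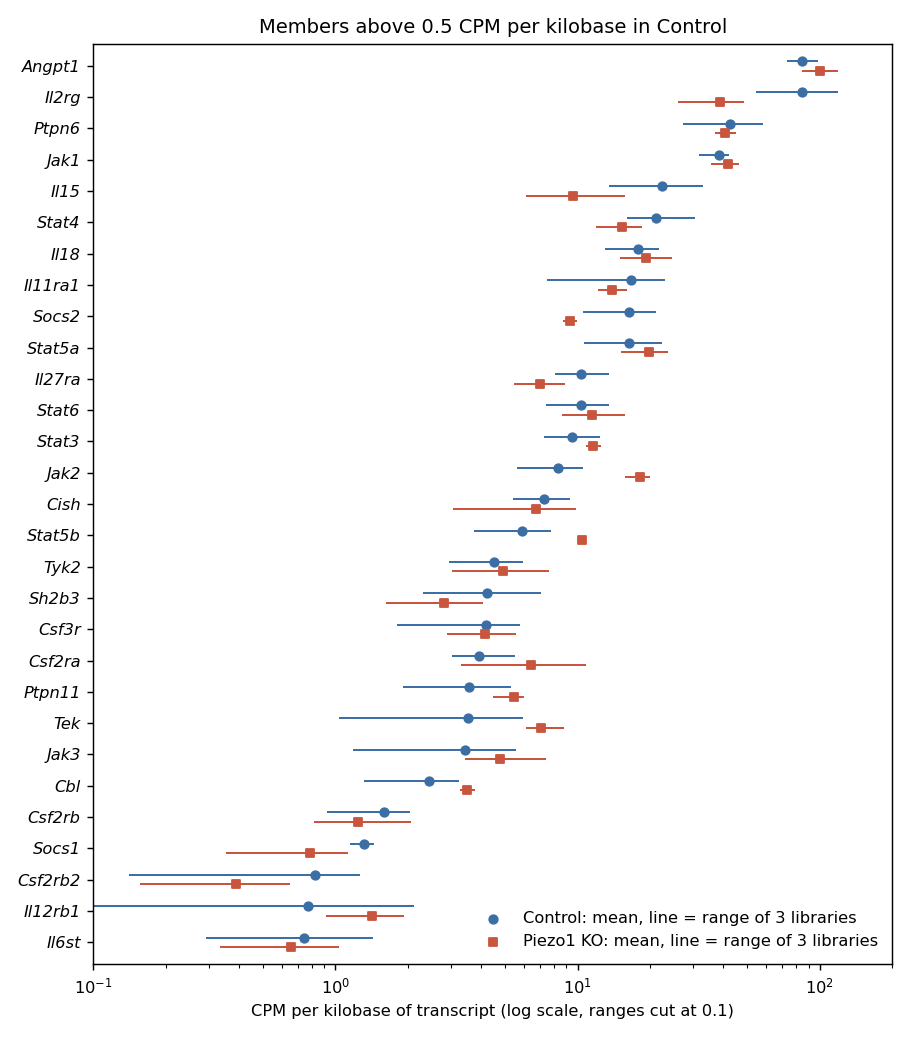
Levels of the members above 0.5 CPM per kilobase in Control, on a log axis, as the mean (points) and range (lines) of 3 libraries per group. Angpt1 and Il2rg lead in Control, and Il2rg and Jak2 show KO ranges that do not meet their Control ranges.

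No member passed the test. The edgeR quasi-likelihood test called 0 of 16022 genes (0%) at an adjusted p under 0.05. It had 871 genes (5.44%) higher in KO and 896 (5.59%) lower at an unadjusted p under 0.05. DESeq2 called 378 genes (2.34% of 16145) higher and 396 (2.45%) lower, and limma-voom 0. At the unadjusted threshold in edgeR, 2 of the 36 tested members were higher in KO (5.56%; Jak2 and Stat5b) and 3 were lower (8.33%; Il2rg, Socs2 and Il15), shares near those of all genes. The 3 KO libraries lay above all 3 Control libraries for 6 members (16.7%; Jak2, Stat5b, Tek, Cbl, Il4ra and Il3ra), against 10.7% of all tested genes. They lay below for 3 members (8.33%; Il2rg, Socs2 and Socs1), against 8.76%. DESeq2 called 2 members, Jak2 higher and Il2rg lower. The log2 difference was above 0 for 22 members (61.1%), against 52.2% of all tested genes, and below 0 for 14. Its median was 0.20 over the members, against 0.03 over all tested genes.

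The differences varied with transcript length. Over 14596 tested genes, the 4585 of at least 4 kb had a median log2 difference of 0.29 and the 4683 under 2 kb one of -0.10. Spearman's rho between difference and length, across genes that share the same 6 libraries, was 0.22 over all tested genes and 0.24 over the 36 members. Members above 0 had a median length of 4.46 kb and those below 0 one of 3.23 kb. With the trends of each library on length and GC content removed, a step chosen after seeing the data, 18 members were above 0 and 18 below, and the median was 0.0082. Each member whose log2 difference changes its sign with this step is named as such below.

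**Figure D2:**
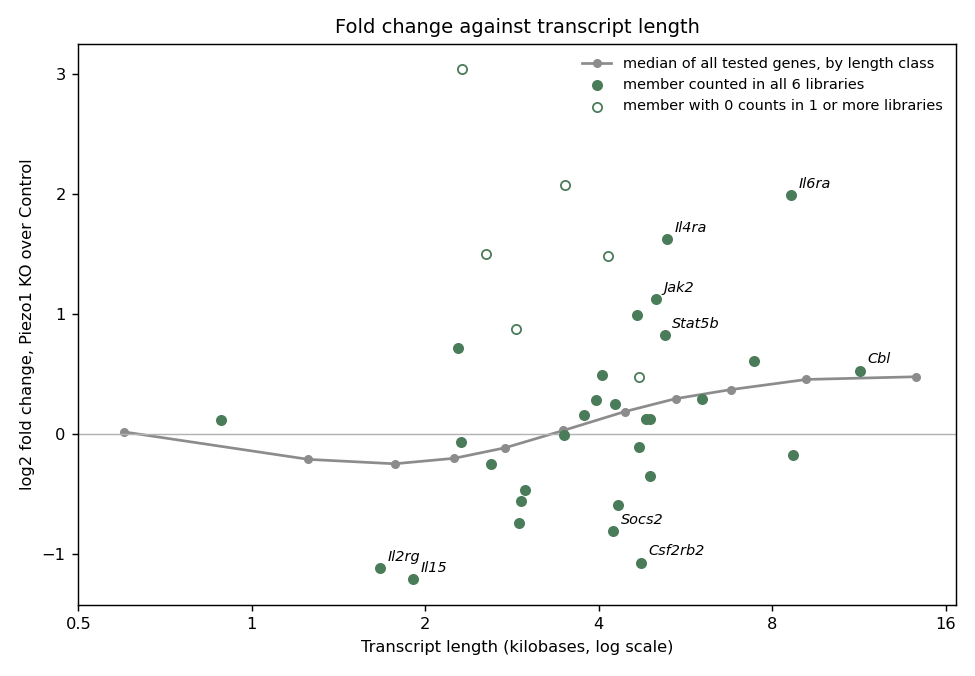
Log2 difference (KO over Control) of the tested members against transcript length in kilobases on a log axis, with the median of all tested genes by length class as a line. From 2 kb on the line climbs with length, and Jak2 lies above it while Il2rg and Il15 lie below it.

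Among the ligands and the Tie system, Angpt1 was the most abundant. Angpt1 encodes angiopoietin-1, the activating ligand of Tek. Its Control libraries held 353, 418 and 313 CPM and its KO libraries 360, 508 and 420 CPM. The groups overlapped, and the log2 difference was 0.25 (SE 0.19; edgeR adjusted p = 0.712). An overlapping long noncoding gene, Gm41313, reached 257 CPM in a library, and with no strand stated for the counts, reads of the 2 genes cannot be told apart. Tek, its receptor, was counted at 27.8, 16.9 and 4.80 CPM in Control and at 28.7, 41.0 and 28.5 CPM in KO. All 3 KO libraries lay above all 3 Control libraries, by 0.743 CPM at the nearest, and Control 3 was the low one. The log2 difference of Tek was 0.99 (SE 0.58; edgeR adjusted p = 0.591). It was 0.55 without Control 3 and 1.59 without Control 1.

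Il15 encodes a cytokine that supports NK cells and memory T cells. It was counted at 63.1, 38.8 and 25.7 CPM in Control and at 11.7, 30.0 and 13.3 CPM in KO. KO 2 lay above Control 3, so the groups overlapped. The log2 difference was -1.21 (SE 0.48; edgeR adjusted p = 0.425), and -0.91 with length and GC content corrected. Without Control 1 it was -0.82. Il18, a ligand matured by inflammasomes, ranged from 11.5 to 19.2 CPM in Control and from 13.3 to 21.8 CPM in KO, with a log2 difference of 0.11 (SE 0.35). Of the ligands in the wider list, Thpo, Il3, Csf2 and Csf3 were at 0 counts in all 6 libraries.

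The receptors of myeloid cytokines lay at or under percentile 44.5 of the Control level per kilobase over tested genes, with Csf3r the highest. Csf3r, the receptor for G-CSF, was counted at 6.26, 20.1 and 17.4 CPM in Control and at 10.1, 19.3 and 13.9 CPM in KO, with a log2 difference of -0.01 (SE 0.51) whose sign changed with several settings. The library labelled Control 3 had its granulocyte list at 12233 CPM, and the part of granulocytes in the Csf3r counts was not tested. Csf2ra, the alpha chain for GM-CSF, was counted at 6.92, 7.25 and 12.6 CPM in Control and at 7.53, 11.6 and 24.7 CPM in KO. Its groups overlapped, with a log2 difference of 0.71 (SE 0.54; edgeR adjusted p = 0.710), which was 0.09 without KO 3. Csf1r, the receptor for M-CSF, reached 3.47 CPM in Control 2 and 3.17 CPM in KO 2 and was at or under 1.86 CPM in the other 4 libraries.

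Il3ra, the alpha chain for IL-3, was the myeloid receptor whose groups did not overlap. It was at 0, 1.49 and 0 CPM in Control and at 3.61, 4.04 and 4.70 CPM in KO. The means were 0.498 and 4.11 CPM, and edgeR fitted a log2 difference of 3.04 (SE 2.1; adjusted p = 0.667). With 2 Control libraries at 0 the fitted value rests on Control 2. Without Control 2 it was 10.93, a value that depends on the prior count and is no bound. The shared beta chains are encoded by Csf2rb and by its mouse copy Csf2rb2, which serves IL-3, and the counting may have split their reads. Their sum was 10.5, 13.9 and 10.6 CPM in Control, against 10.8, 7.06 and 5.90 CPM in KO. The sums overlapped (two-sided exact permutation test, p = 0.3, where 20 splits allow no p below 0.1; Benjamini-Hochberg p = 0.36 over 6 such quantities). The Csf2rb2 share of the sum ran from 6.28% to 57.0% in Control and from 6.81% to 43.5% in KO, with no separation of the groups.

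In the gp130 family, the IL-11 and IL-27 receptors were the members with most counts. Il11ra1, which binds IL-11, was counted at 49.97, 60.1 and 19.5 CPM in Control and at 31.6, 41.5 and 35.6 CPM in KO. The KO libraries lay inside the Control range, with a log2 difference of -0.25 (SE 0.40). Ccl27a overlaps Il11ra1 and reached 19.3 CPM, and reads of the pair cannot be told apart. Il27ra was counted at 27.7, 39.6 and 23.6 CPM in Control and at 15.97, 19.5 and 26.1 CPM in KO. Only KO 3 reached into the Control range, and the log2 difference was -0.56 (SE 0.32; edgeR adjusted p = 0.575).

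The chains of the IL-6 receptor were near the low end. Il6ra, the ligand-binding chain, was counted at 0.660, 0.601 and 3.11 CPM in Control and at 2.38, 6.11 and 8.90 CPM in KO. Control 3 lay above KO 1, and the log2 difference was 1.99 (SE 0.96; edgeR adjusted p = 0.505), or 3.20 without Control 3. Il6st, which encodes gp130, the signalling chain of the whole family, ranged from 2.53 to 12.4 CPM in Control and from 2.90 to 8.94 CPM in KO. Its log2 difference was -0.18 (SE 0.77). Lifr had counts in 3 libraries, at most 1.31 CPM, and Osmr was at 0 counts in all 6.

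Among lymphoid and other receptors, Il2rg was the one with high counts. It encodes the common gamma chain shared by the receptors for IL-2, IL-4, IL-7, IL-9, IL-15 and IL-21, which pairs with Jak3. It was counted at 199, 134 and 90.9 CPM in Control and at 69.2, 81.7 and 43.6 CPM in KO. All 3 KO libraries lay below all 3 Control libraries, and the nearest were KO 2 and Control 3. The means were 141 ± 54.2 and 64.8 ± 19.5 CPM (SD, n = 3), a log2 difference of -1.12 (SE 0.35; edgeR adjusted p = 0.332), and the adjusted p in DESeq2 was 0.0325. The log2 difference lay between -1.36 and -0.79 over 13 other settings, with an unadjusted p from 0.00125 to 0.0477. It was -0.83 with length and GC content corrected, -1.19 without Control 2, and -1.36 without the library labelled Control 3, which stood apart in its granulocyte genes.

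The chains that join the gamma chain were uneven. Il2ra and Il2rb were at 0 counts in all 6 libraries, and Il7r had 193 counts in KO 2 (3.21 CPM) and 0 in the other 5. KO 2 was also the library with most counts of the T cell genes Cd3d and Cd3g. The part of T cells in the Il7r counts was not tested. Il4ra, which binds IL-4 and IL-13, was counted at 2.94, 3.03 and 1.11 CPM in Control and at 4.53, 3.32 and 14.0 CPM in KO. The groups did not overlap, though KO 2 stood 0.289 CPM above Control 2 and KO 3 held most of the difference. Its log2 difference was 1.62 (SE 0.80; edgeR adjusted p = 0.514), and 0.71 without KO 3. Il21r and Il15ra, from the wider list, averaged 32.0 and 34.9 CPM in Control, against 17.8 and 32.3 CPM in KO. Both had overlapping groups, with log2 differences of -0.85 (SE 0.46; edgeR adjusted p = 0.561) and -0.11 (SE 0.30).

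The remaining receptors were counted unevenly over the libraries. Il12rb1, a chain of the IL-12 and IL-23 receptors, was at 0, 6.07 and 0.575 CPM in Control and at 2.62, 4.09 and 5.50 CPM in KO. Control 2 held the highest value of the 6 and Control 1 none. Il10ra had counts in 3 libraries, at most 1.30 CPM. Il18r1 reached 5.13 CPM in KO 1 and was at 0 in Control 1 and KO 2. None of the 3 had an edgeR adjusted p under 0.834.

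**Figure D3:**
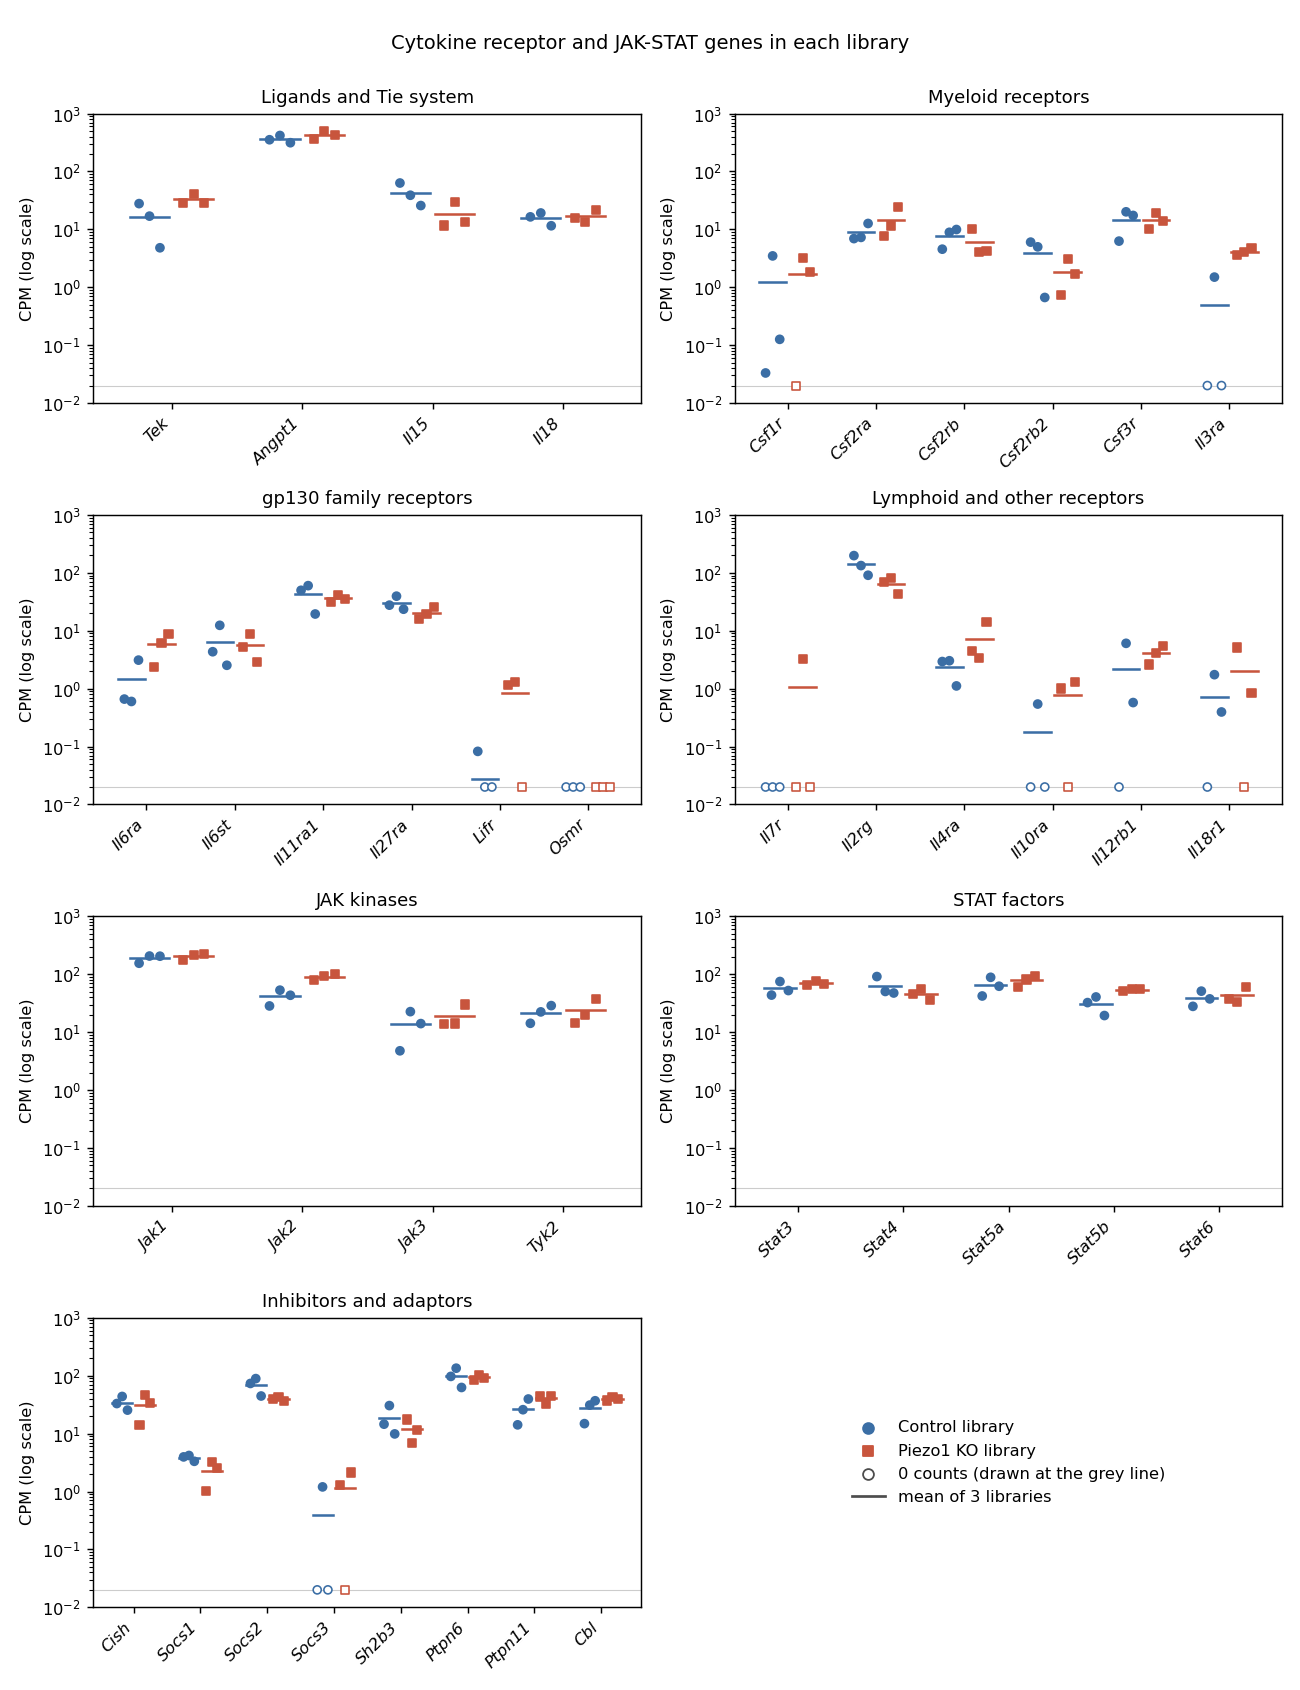
CPM of each member in each library on a log axis, by role, with Control as circles, KO as squares, group means as short lines, and open symbols at the grey line for 0 counts. Jak2 and Stat5b show 3 KO squares above all Control circles, and Il2rg and Socs2 show them below.

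Of the 4 JAK kinases, Jak2 was the one whose groups stood apart. Jak2 is the kinase of the receptors for erythropoietin, IL-3 and GM-CSF. It was counted at 28.4, 53.2 and 43.4 CPM in Control and at 78.8, 93.8 and 99.8 CPM in KO. All 3 KO libraries lay above all 3 Control libraries, and the lowest of them stood 25.6 CPM above the highest Control library. The means were 41.7 ± 12.5 and 90.8 ± 10.8 CPM (SD, n = 3), a log2 difference of 1.12 (SE 0.26; edgeR adjusted p = 0.255), and the adjusted p in DESeq2 was 0.00498. The log2 difference lay between 0.91 and 1.32 over 13 other settings, with an unadjusted p from 7.68e-05 to 0.0145. It was 0.99 with length and GC content corrected, and 1.32 without Control 2. The megakaryocyte marker sum and the erythroid sum, the latter through its globins and not Car2 or Klf1, also lay higher in all 3 KO libraries than in any Control library, and their part in the Jak2 difference was not tested.

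The other JAK genes had overlapping groups. Jak1, the partner of most gp130 and gamma chain receptors, was counted at 155, 207 and 205 CPM in Control and at 175, 214 and 227 CPM in KO. Its log2 difference of 0.12 (SE 0.19) turned to -0.07 with length and GC content corrected. Jak3 was counted at 4.77, 22.7 and 14.1 CPM in Control and at 13.9, 14.1 and 30.1 CPM in KO, a log2 difference of 0.49 (SE 0.60), or 0.02 with the correction. Tyk2, which serves interferon and IL-12 receptors, was counted at 14.2, 22.4 and 28.8 CPM in Control and at 14.6, 19.9 and 36.8 CPM in KO. Its log2 difference of 0.12 (SE 0.43) turned to -0.36 with the correction. The 4 kinases summed to 203, 305 and 292 CPM in Control, against 282, 342 and 394 CPM in KO, and these sums overlapped (two-sided exact permutation test, p = 0.3; Benjamini-Hochberg p = 0.36).

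Among the 5 STAT genes, Stat5b was higher in each KO library than in any Control library. Stat5a and Stat5b encode closely related factors that act downstream of Jak2. Stat5b was counted at 32.5, 40.59 and 19.4 CPM in Control and at 52.2, 55.4 and 56.2 CPM in KO. The KO libraries lay closer to each other than the Control libraries did, and the log2 difference was 0.82 (SE 0.29; edgeR adjusted p = 0.383). With length and GC content corrected it was 0.46 with an unadjusted p of 0.185, and without Control 3 it was 0.58.

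Stat5a was counted at 42.2, 88.7 and 62.2 CPM in Control and at 60.02, 81.2 and 93.8 CPM in KO. The groups overlapped, and the log2 difference of 0.28 (SE 0.31) turned to -0.08 with the correction. As reads of the copies could be split by the counting, the sum of both was also taken. It was 74.6, 129 and 81.6 CPM in Control, against 112, 137 and 150 CPM in KO, and overlapped (two-sided exact permutation test, p = 0.2; Benjamini-Hochberg p = 0.36). Stat5b made up 23.8% to 43.5% of the sum in Control and 37.4% to 46.5% in KO, which overlapped.

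The other STAT genes did not separate the groups. Stat3, the main factor of gp130 receptors, was counted at 43.7, 75.1 and 52.4 CPM in Control and at 65.7, 75.7 and 68.3 CPM in KO. Its log2 difference of 0.29 (SE 0.24) turned to -0.09 with length and GC content corrected. Stat4, the factor of the IL-12 receptor, was counted at 91.4, 50.5 and 47.5 CPM in Control and at 45.7, 55.3 and 35.6 CPM in KO. Control 1 was the high library, and the log2 difference was -0.47 (SE 0.31; edgeR adjusted p = 0.654). Stat6, the factor of the IL-4 receptor, was counted at 27.9, 51.2 and 37.6 CPM in Control and at 38.1, 32.7 and 59.2 CPM in KO. Its log2 difference of 0.16 (SE 0.33) turned to -0.01 with the correction. Of the 9 JAK and STAT genes 8 had a log2 difference above 0, against 52.2% of all tested genes. After the correction 3 of the 9 (Jak2, Jak3 and Stat5b) were above 0.

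**Figure D4:**
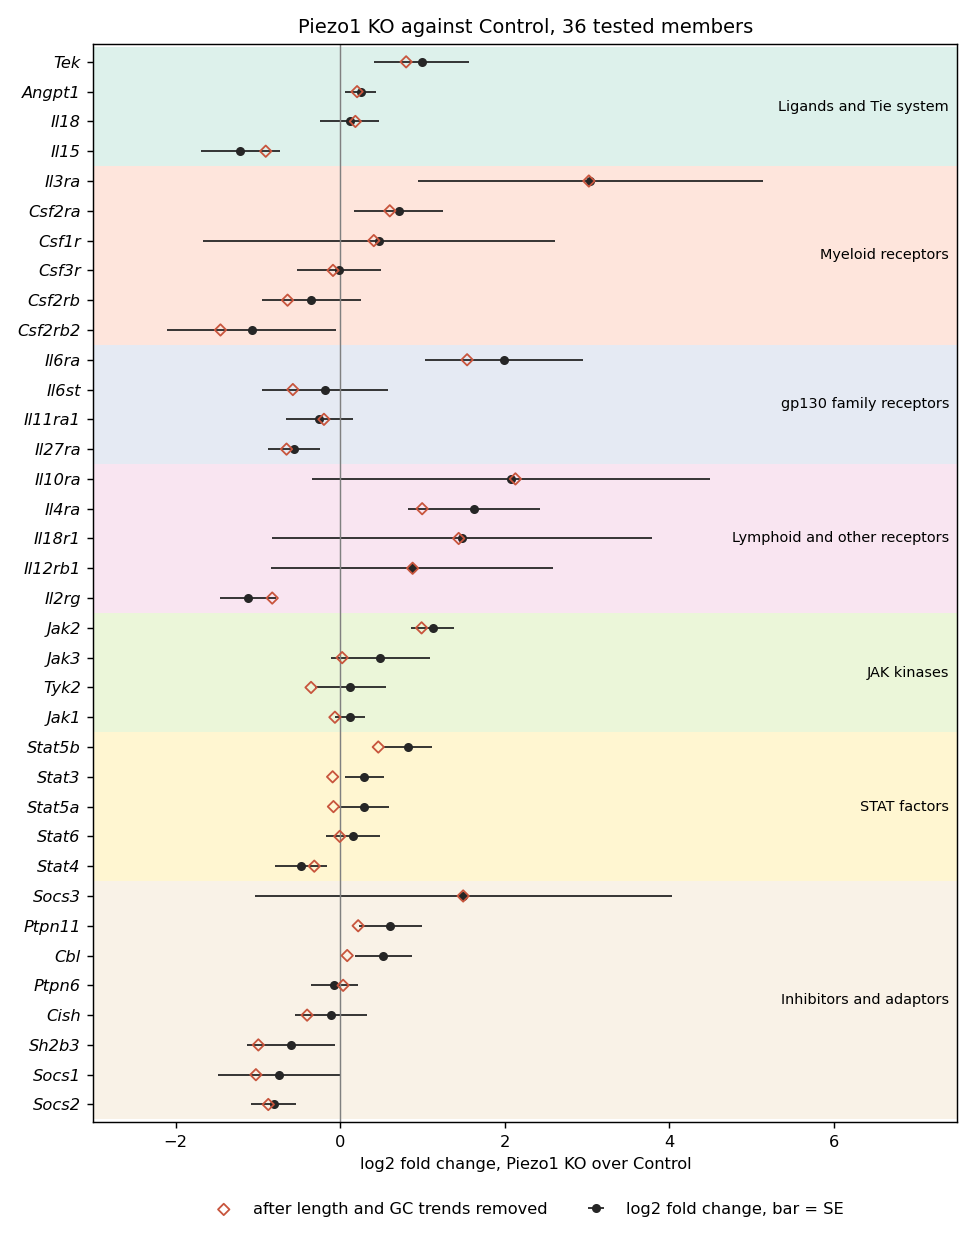
Log2 difference (KO over Control) of the 36 tested members by role, as points with SE bars, and after removal of length and GC trends as open diamonds. The diamonds of most JAK and STAT genes lie nearer 0 or below it, while those of Jak2, Il2rg and Socs2 lie within 1 SE of their points.

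The inhibitors held genes both above and below 0. Socs2, a STAT5 target known for damping growth hormone signalling, was counted at 73.6, 89.2 and 44.6 CPM in Control and at 38.9, 42.3 and 37.0 CPM in KO. All 3 KO libraries lay below all 3 Control libraries, by 2.36 CPM at the nearest, which was Control 3. The means were 69.1 ± 22.6 and 39.4 ± 2.65 CPM (SD, n = 3), a log2 difference of -0.81 (SE 0.28; edgeR adjusted p = 0.373). With length and GC content corrected it was -0.87, and without Control 2 it was -0.61.

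The other genes of the SOCS family were lower in counts than Socs2 or had overlapping groups. Socs1, an inhibitor of JAK kinases, was counted at 3.96, 4.19 and 3.33 CPM in Control and at 1.02, 3.29 and 2.55 CPM in KO. Its groups did not overlap but KO 2 stood within 0.0365 CPM of Control 3, and the log2 difference was -0.74 (SE 0.74; edgeR adjusted p = 0.796). Cish ranged from 25.5 to 43.8 CPM in Control and from 14.3 to 46.4 CPM in KO, with a log2 difference of -0.11 (SE 0.44). Socs3, the inhibitor tied to gp130, had 0 counts in 3 of 6 libraries and at most 2.13 CPM. Cish, Socs1, Socs2 and Socs3 summed to 111, 138 and 73.4 CPM in Control, against 55.6, 92.0 and 75.5 CPM in KO, which overlapped (two-sided exact permutation test, p = 0.3; Benjamini-Hochberg p = 0.36). The 2 genes whose promoters are shown above with the STAT motif, Cish and Socs3, had overlapping groups.

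The phosphatases and adaptors lay between percentile 33.7 (Cbl) and 85.5 (Ptpn6) of the Control level per kilobase over tested genes. Ptpn6 (SHP-1), a phosphatase that dampens cytokine receptors in blood cells, was counted at 97.3, 135 and 62.7 CPM in Control and at 85.6, 105 and 90.5 CPM in KO. The KO libraries lay inside the Control range, and the log2 difference of -0.07 (SE 0.28) turned to 0.03 with the correction. Ptpn11 (SHP-2), which carries signal to the MAP kinases, was counted at 14.2, 25.9 and 39.6 CPM in Control and at 43.7, 33.2 and 44.7 CPM in KO. KO 2 lay below Control 3, and the log2 difference was 0.61 (SE 0.38; edgeR adjusted p = 0.626), or 0.22 with length and GC content corrected.

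Cbl, a ubiquitin ligase that turns over activated receptors, was counted at 14.9, 31.1 and 37.0 CPM in Control and at 37.3, 42.9 and 39.2 CPM in KO. The groups did not overlap, with Control 3 and KO 1 within 0.344 CPM. The log2 difference was 0.52 (SE 0.35; edgeR adjusted p = 0.655), and 0.08 after the correction. Sh2b3 (LNK), the adaptor that restrains Jak2 in stem cells, ranged from 9.89 to 30.5 CPM in Control and from 6.99 to 17.6 CPM in KO. Its log2 difference was -0.60 (SE 0.54).

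The libraries also differed among themselves over the members as a whole. Of the 30 members counted in all 6 libraries, 11 had their lowest value in Control 1 and 9 in Control 3, against 1 in Control 2. The highest value fell in KO 3 for 12 of the 30, in the library labelled Control 2 for 8, and in Control 3 for 0. Among these 30, the highest Control library exceeded the lowest by 1.26-fold (Socs1) to 9.04-fold (Csf2rb2). It did so by 1.33-fold for Jak1 and Angpt1 and by 5.79-fold for Tek.

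The rest of the pathway was read from a list of 73 genes, of which 59 were tested. None passed in edgeR (0 of 59). At an unadjusted p under 0.05, 5 were higher in KO (8.47%; Kit, Il1r1, Grb2, Stam and Gadd45g), against 5.44% of all tested genes, and 3 were lower (5.08%; Stam2, Il10rb and Pim1), against 5.59%. DESeq2 called Grb2, Stam and Gadd45g higher and Stam2 lower, where it called 2.34% of all genes higher and 2.45% lower. The median log2 difference of the list was 0.11. Of the 14 genes that were not tested 9 were at 0 counts in all 6 libraries.

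Among the receptors of the list, Kit, which binds stem cell factor, was counted at 106, 223 and 226 CPM in Control and at 323, 293 and 344 CPM in KO. The groups did not overlap, with Control 1 as the low library. The log2 difference was 0.79 (SE 0.29; edgeR adjusted p = 0.398), and 0.51 without Control 1. Epor, the erythropoietin receptor, was counted at 11.7, 26.9 and 59.8 CPM in Control and at 57.4, 14.8 and 31.2 CPM in KO. It overlapped over almost the whole range, with a log2 difference of 0.07 (SE 0.67) that turned to -0.01 with the correction.

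Flt3, the receptor of early lymphoid progenitors, was counted at 8.57, 10.5 and 9.11 CPM in Control and at 5.30, 5.63 and 11.7 CPM in KO. KO 3 was the highest of the 6 libraries, and the log2 difference was -0.32 (SE 0.48). Il1r1, the receptor for IL-1, was counted at 0.363, 1.93 and 1.02 CPM in Control and at 2.26, 5.63 and 7.09 CPM in KO. The groups did not overlap, with a log2 difference of 2.17 (SE 0.92; edgeR adjusted p = 0.451), or 2.83 without Control 2. Il10rb, a chain shared by the IL-10 family, was counted at 54.5, 36.1 and 31.0 CPM in Control and at 21.4, 22.1 and 28.6 CPM in KO. All KO libraries lay below all Control libraries, with a log2 difference of -0.75 (SE 0.29; edgeR adjusted p = 0.412).

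Of the interferon genes set by name, Ifnar1, Ifngr1 and Stat2 had overlapping groups. Ifnar1, a type I interferon receptor chain, was counted at 37.1, 38.9 and 23.1 CPM in Control and at 37.5, 33.4 and 43.1 CPM in KO (log2 difference 0.20, SE 0.27). Ifngr1, which binds interferon gamma, was counted at 166, 138 and 132 CPM in Control and at 140, 77.2 and 129 CPM in KO (log2 difference -0.33, SE 0.25). Stat2, a factor of type I interferon signalling, was counted at 7.69, 19.4 and 19.4 CPM in Control and at 16.1, 31.1 and 19.4 CPM in KO (log2 difference 0.52, SE 0.46). Ifnar2, the other type I interferon receptor chain, named after its values were seen, did not overlap. It was counted at 71.1, 67.9 and 83.6 CPM in Control and at 58.6, 62.7 and 57.7 CPM in KO, with a log2 difference of -0.32 (SE 0.17; edgeR adjusted p = 0.566).

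Stam and Stam2, related adaptors of receptor sorting on endosomes, lay on opposite sides. Stam was counted at 20.6, 15.3 and 11.1 CPM in Control and at 34.2, 26.2 and 41.6 CPM in KO, with a log2 difference of 1.12 (SE 0.33; edgeR adjusted p = 0.315) and a DESeq2 adjusted p of 0.0483. Stam2 was counted at 55.5, 31.2 and 40.5 CPM in Control and at 18.6, 15.0 and 24.7 CPM in KO, with a log2 difference of -1.13 (SE 0.32; edgeR adjusted p = 0.304) and a DESeq2 adjusted p of 0.0307. Neither gene's groups overlapped, and the length and GC correction left them at 1.01 and -1.22. Grb2, the adaptor that links receptors to Ras, was counted at 20.5, 35.2 and 49.7 CPM in Control and at 73.4, 68.5 and 100.2 CPM in KO. All KO libraries lay above all Control libraries, with a log2 difference of 1.20 (SE 0.34; edgeR adjusted p = 0.311).

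Known STAT targets did not share 1 direction. Gadd45g, a stress and cytokine induced gene, was counted at 7.06, 5.44 and 3.58 CPM in Control and at 12.5, 16.8 and 16.1 CPM in KO. Its groups did not overlap, with a log2 difference of 1.5 (SE 0.42; edgeR adjusted p = 0.304). Pim1, a survival kinase, was counted at 59.8, 53.9 and 32.1 CPM in Control and at 22.9, 33.3 and 23.8 CPM in KO. KO 2 lay just above Control 3, with a log2 difference of -0.87 (SE 0.31; edgeR adjusted p = 0.381). Myc was counted at 334, 318 and 221 CPM in Control and at 198, 215 and 233 CPM in KO, which overlapped, with a log2 difference of -0.43 (SE 0.20; edgeR adjusted p = 0.483). Of the 14 targets on the list 9 had a log2 difference above 0 and 5 below, with a median of 0.05. Of all tested genes 52.2% were above 0.

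**Figure D5:**
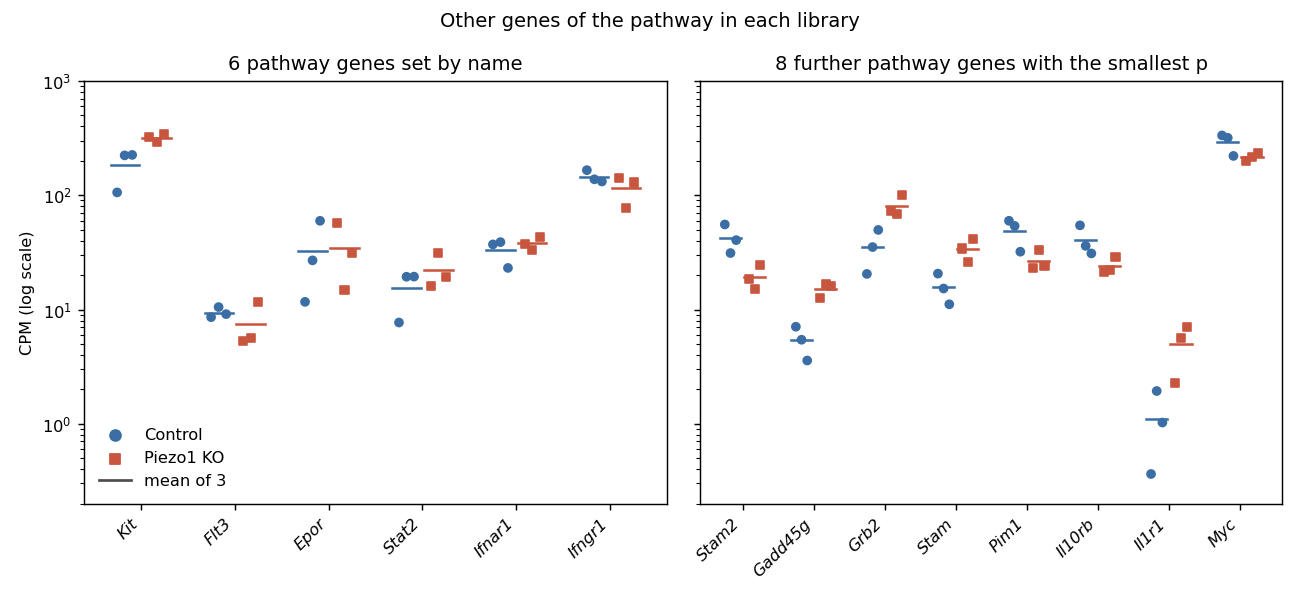
CPM of 14 further pathway genes in each library on a log axis, with Control as circles, KO as squares and group means as short lines. Kit, Grb2, Stam, Gadd45g and Il1r1 have 3 KO squares above all Control circles, Stam2 and Il10rb have them below, and Epor overlaps.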

How the data were processed

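The deposited values are whole-number read counts per gene, not normalized by the authors, in 1 table per library. RNA was extracted with TRIZOL and made into TruSeq libraries, per the labels' protocols. HISAT2 2.1, featureCounts 1.6.4, cutadapt 1.16.5, bcl2fastq 2.19, DESeq2 2.11.40.6 and build mm10 are named, without role or order, in the submitters' processing notes. Strand and the handling of reads with several matches are not given in the sources used here, so related copies whose reads could be split (Csf2rb and Csf2rb2, Stat5a and Stat5b) and the 17 members that overlap another RefSeq gene are uncertain.

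In R 4.3.3, edgeR 4.0.16 tested KO against Control over all 6 libraries (filterByExpr, TMM scaling, quasi-likelihood F test), with Benjamini-Hochberg adjustment over all 16022 tested genes and a threshold of 0.05. The SE is the absolute log2 difference over the square root of F. CPM use the TMM-adjusted totals, and levels per kilobase the longest GENCODE vM21 transcript. The members, the wider list and the tests were chosen with earlier results of these data known. Every member may be named. Values in each library are given for the 16 members with the smallest p, all JAK and STAT genes, the 2 highest members per role, 6 pathway genes by name and the 8 further ones with the smallest p. The results of 2 more genes set by name are not reported here. Alternatives were other size factors, no filter, a filter of 5 CPM in 3 libraries, DESeq2 1.42.0, limma-voom (limma 3.58.1), a replicate block, each library left out, and the length and GC correction added after seeing the data. No 2 libraries agreed within sampling noise, with a chi-square of at least 123 per gene. The steps were tested on counts simulated for this comparison over 16022 genes, with 50 changed per fold size. The changed genes were drawn only from those averaging at least 5 CPM. At a 2-fold change 6 were recovered, 31 at a 4-fold, 41 at an 8-fold and 48 at a 16-fold change. Of the unchanged genes, 5 were called. Recovery of genes at lower levels was not tested. Protein sequences were not used here, so the planned identity of the copies was not computed.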

Additional observations from a re-analysis of the deposited data

How the results depend on the processing

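The edgeR test called 0 genes in all; a filter of 5 CPM in 3 libraries gave 1, DESeq2 774, and leaving out 1 library 0 to 1 (1 without Control 1). DESeq2 called 2 members and 4 pathway genes, where it called 2.34% of all genes higher and 2.45% lower. Members higher in KO at an unadjusted p under 0.05 numbered 2, and 4 with DESeq2, 4 with limma-voom, 1 with length and GC content corrected and 1 to 4 with 1 library left out (4 without Control 2 or Control 3, 1 without KO 1, KO 2 or KO 3). Members lower numbered 3, and 1 to 4 with 1 library left out (1 without Control 1, Control 2, KO 1 or KO 3). Pathway genes higher numbered 5, and 2 to 7 with 1 library left out (3 without KO 2, 2 without KO 3). Pathway genes lower numbered 3, and 5 with DESeq2 and 1 to 7 with 1 left out (1 without Control 1 or KO 1, 7 without Control 3). Over all genes these shares moved too: from 5.44% higher to 3.33% (without KO 3) and 7.86% (without Control 3), and from 5.59% lower to 3.35% (without Control 1) and 7.62% (without Control 3), with 6.07% and 6.18% in DESeq2, 7.55% and 6.38% in limma-voom, and 4.77% and 5.55% after the length and GC correction. The median log2 difference of 0.20 became 0.0082 with length and GC content corrected and 0.0228 (without Control 1) to 0.4505 (without Control 2) with 1 library left out. Members lying below Control in every KO library numbered 3, and 3 to 7 with 1 library left out (7 without Control 3, 5 without KO 2). With 2 libraries in a group separation is more common for every gene: 8.76% of all genes lay below in this way, and 11.1% to 16.9% with 1 library left out (16.9% without Control 3, 12.02% without KO 2). The cause of these moves was not tested, apart from the fewer samples or genes they use.

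With length and GC content corrected, the log2 difference turned to -0.065 for Jak1, -0.3551 for Tyk2, -0.0929 for Stat3, -0.0829 for Stat5a, -0.0063 for Stat6, 0.0346 for Ptpn6 and -0.0077 for Epor. Csf3r turned to 0.0933 in limma-voom and to 0.1007 with the replicate block. With 1 library left out, signs changed within these ranges: Il18 -0.1254 to 0.2615, Csf1r -0.3823 to 4.3545, Csf3r -0.3768 to 0.2744, Il6st -0.6725 to 0.6954, Il11ra1 -0.6035 to 0.0315, Il18r1 -0.7595 to 3.3199, Jak1 -0.0069 to 0.2039, Tyk2 -0.3487 to 0.3729, Stat6 -0.1477 to 0.3819, Cish -0.5051 to 0.2143, Ptpn6 -0.3126 to 0.1993, Epor -0.5235 to 0.8362 and Ifnar1 -0.0005 to 0.3084.

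The same-numbered libraries deviated together only weakly (correlations of 0.038, 0.016 and 0.033), although 6 of 6 libraries correlated best with their own number, a hint from the data and not from the design. These 6 matches share the same correlations and are not independent. For Control 2 the correlation of 0.016 with KO 2 stood against 0.0079 with KO 3. Under the replicate block, 0 genes passed the adjusted threshold, 2 members higher in KO and 3 lower were under an unadjusted p of 0.05, and the median log2 difference of the members was 0.2005. Besides the sign of Csf3r, the block changed no call at the adjusted threshold.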
